A study of Mus musculus with 6 samples.

Results

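The genes described here are 10 markers of cytotoxic T cells and natural killer (NK) cells, *Cd8a*, *Cd8b1*, *Gzma*, *Gzmb*, *Prf1*, *Nkg7*, *Klrd1*, *Klrb1c*, *Ncr1* and *Eomes*, chosen by gene name among the 34745 genes of the count files. They were measured by RNA-seq of poly(A) RNA from whole inguinal white adipose tissue (IngWAT), the main subcutaneous fat pad of the mouse. The SAKI group held 3 adipose-specific *Slc35d3* knock-in mice, which carried an LSL-Slc35d3 transgene locus together with a Cre recombinase driven by the adiponectin promoter, and the controls were 3 WT mice, which carried the *Slc35d3* alleles without Cre. All 6 were male, ate a normal chow diet (10 kcal% fat) for 10 weeks, starting at 6 and ending at 16 weeks of age, and are labelled as perfused with PBS. Adiponectin is made by adipocytes, so the transgene was directed to adipocytes, whereas the 10 genes belong to lymphocytes that were present in the same tissue piece.

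CD8 T cells recognise antigen on MHC class I molecules with their T cell receptor and the CD8 co-receptor, and NK cells read surface ligands with germline-encoded receptors. Both kill through granules: perforin opens the membrane of the target cell and granzymes, which are serine proteases, enter it. In fat tissue both cell types are part of the resident and infiltrating immune cells, and the inguinal pad also encloses a lymph node, which is rich in T and B cells.

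The libraries held between 15354161 and 18787036 counts. *Slc35d3* itself was at 745, 793 and 770 counts scaled to a common library size (CPM) in SAKI mice, against 73.3, 82.1 and 74.4 CPM in WT mice (log2 fold change 3.33, SE 0.12, edgeR adjusted p = 0.000244). One control stood apart from the other 2: on the first principal component of all genes, which took 46.8% of the variance, SAKI mice lay at -30.3, -26.0 and -20.9, and WT mice 1, 2 and 3 at 43.2, -27.9 and 61.9, so that WT 2 lay among the SAKI mice. The mitochondrial share of counts was 13.1 to 15.9% in SAKI mice, and 7.31, 13.8 and 8.78% in WT mice 1, 2 and 3. Adipocyte markers were abundant in every library, and summed to between 20710 and 23420 CPM in SAKI mice, against between 23570 and 29630 CPM in WT mice. Markers of B cells were present as well, and summed to between 921 and 1059 CPM in SAKI mice, against between 595.0 and 1044 CPM in WT mice. Results of the members that rest on WT 2 are therefore given with and without it.

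No member passed the test between SAKI and WT mice. All 10 were above the filter on low counts, 8 had a log2 fold change above 0 and 2 below 0, and their median was 0.24, beside a median of -0.0035 over the 15400 genes tested. With edgeR, 0 of 10 had an adjusted p under 0.05, where 0.0325% of all tested genes did. At an unadjusted p under 0.05 there were 2 members higher in SAKI mice (*Cd8b1* and *Klrd1*), where 8.36% of all tested genes were, and 0 lower, where 9.99% were. The same 2 members had SAKI values that did not overlap those of WT mice, all higher, where 13.0% of all tested genes showed this, and 0 members lay apart in the lower direction, where 12.4% did. Other tools and settings also called 0 members, including those that called many genes elsewhere: without WT 2, where 16.6% of genes passed, with DESeq2, where 4.61% did, and with the level of B cell markers as a covariate, where 4.90% did. In whole tissue, fewer cells of a type and less RNA per cell cannot be told apart.

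**Figure D1:**
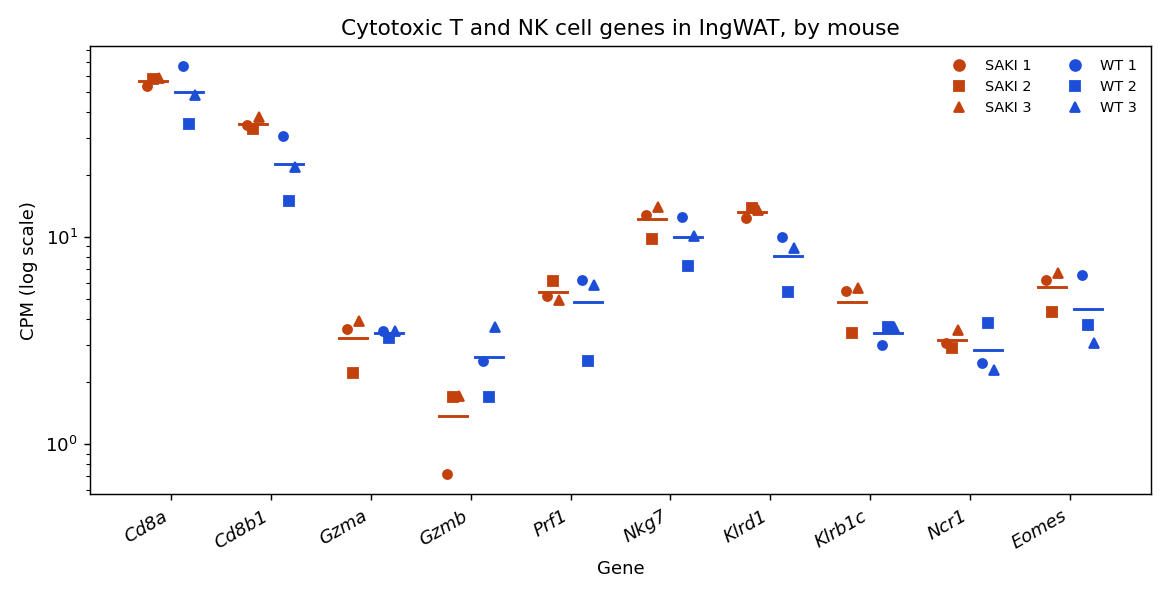
CPM of each gene (log axis) in 3 SAKI mice (orange, left of each pair) and 3 WT mice (blue, right); symbols mark mouse 1, 2 and 3 and bars the group means. *Cd8b1* and *Klrd1* of SAKI mice lay above every WT mouse, and WT 2 (blue square) was the lowest of all 6 mice for 5 of the 10 genes.

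*Cd8a* and *Cd8b1* encode the alpha and beta chains of the CD8 co-receptor and lie side by side on chromosome 6 (GRCm38 6:71373427-71379173 and 6:71322788-71337494, both on the plus strand). *Cd8a* was at 53.8, 58.1 and 58.8 CPM in SAKI mice, against 66.6, 35.1 and 48.4 CPM in WT mice 1, 2 and 3. The SAKI values were close together and lay inside the wide WT range. The means were 56.9 ± 2.69 CPM in SAKI mice and 50.1 ± 15.8 CPM in WT mice (SD, n = 3 each), and the log2 fold change was 0.19 (SE 0.22, edgeR adjusted p = 0.674). Without WT 2 the sign turned, to -0.01, and without WT 1 it was 0.44.

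*Cd8b1* was at 34.7, 33.1 and 37.8 CPM in SAKI mice, against 30.7, 14.98 and 21.7 CPM in WT mice. Every SAKI mouse was above every WT mouse, with WT 1 the nearest. The means were 35.2 ± 2.40 CPM in SAKI mice and 22.4 ± 7.88 CPM in WT mice (SD, n = 3 each), which is 1.57-fold higher (log2 0.65, SE 0.25, unadjusted p = 0.033, edgeR adjusted p = 0.243). The exact permutation test gave p = 0.1, two-sided, the smallest that 3 against 3 mice allow. Without WT 2 the log2 fold change was 0.43 (edgeR adjusted p = 0.119).

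The chains could be compared within a mouse. The log2 ratio of *Cd8b1* to *Cd8a* in CPM, which is not per length and serves only to compare the groups, was -0.63, -0.81 and -0.64 in SAKI mice, against -1.12, -1.23 and -1.16 in WT mice. The ratio was higher in every SAKI mouse, WT 2 included among the lower ones, and the spread within each group was small (SD 0.10 in SAKI and 0.06 in WT mice). The share of all genes that lay apart when set against *Cd8a* was not computed, so this separation has no background beside it. The difference was 0.48 on the log2 scale (exact permutation p = 0.1, Benjamini-Hochberg adjusted p = 0.171 over the 12 ratios computed), and it was 0.45 to 0.54 when each mouse was left out in turn. CD8 alpha chains also occur without beta chains, on type 1 dendritic cells among others, and markers of these cells summed to 172, 178 and 182 CPM in SAKI mice and 151, 116 and 122 CPM in WT mice. *Wdfy4* was the largest part of these sums, at 102, 113 and 109 CPM in SAKI mice and 101, 67.3 and 78.6 CPM in WT mice. All 6 of those markers were tested, and 4 had a log2 fold change above 0, while *Tlr3* and *Batf3* did not. The part of these cells in the ratio was not tested.

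The granule genes of the list were *Gzma*, *Gzmb* and *Prf1*, which encode the killing molecules, and *Nkg7*, which encodes a granule membrane protein. The bases that precede the start of the killing genes are shown because they hold, or lack, letters bound by transcription factors. Levels of T-box and Runx factors of lymphocytes are described further on, and those of AP-1 factors are not. RefSeq (GRCm38.p6) gave promoters for 8 of the 10 members, and *Cd8b1* and *Klrd1* had none in the table. Each sequence below is the 250 bases before the start of the gene in RefSeq, 5′ to 3′ on the gene's strand, for *Gzma* (13:113100982-113101231, minus strand), *Gzmb* (14:56262335-56262584, minus strand) and *Prf1* (10:61297586-61297835, plus strand). The RefSeq start of *Gzmb* lies upstream of the one in the count files, whose coordinates are given further on, and distances are from the RefSeq start. Capitals mark, on either strand, a T-box motif (GTGTGA, read as TCACAC on the other strand), a Runx motif (TGTGGT, or ACCACA) or an AP-1 motif (TGANTCA).
Gzma: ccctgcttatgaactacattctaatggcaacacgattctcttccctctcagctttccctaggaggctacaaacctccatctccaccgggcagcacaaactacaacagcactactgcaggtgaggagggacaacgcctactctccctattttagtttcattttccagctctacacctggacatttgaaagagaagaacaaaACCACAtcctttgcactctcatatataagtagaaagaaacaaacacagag
Gzmb: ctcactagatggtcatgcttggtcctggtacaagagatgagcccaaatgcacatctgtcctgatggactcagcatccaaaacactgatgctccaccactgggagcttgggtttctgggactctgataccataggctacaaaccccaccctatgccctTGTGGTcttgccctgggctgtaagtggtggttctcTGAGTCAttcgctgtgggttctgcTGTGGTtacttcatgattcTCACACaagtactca
Prf1: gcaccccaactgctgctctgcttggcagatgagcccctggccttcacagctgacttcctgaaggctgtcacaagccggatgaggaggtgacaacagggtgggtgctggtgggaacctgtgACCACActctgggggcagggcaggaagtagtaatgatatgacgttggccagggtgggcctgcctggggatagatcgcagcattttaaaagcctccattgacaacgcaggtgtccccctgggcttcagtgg
The *Gzmb* sequence held all 3 kinds, with Runx letters starting 93 and 34 bases before the start, AP-1 letters at 58 and T-box letters at 15. *Gzma* and *Prf1* each held 1 Runx match, 50 and 130 bases before the start, and no match to the other motifs in this window. Over the members with a promoter, the T-box letters were in 3 of 8 (*Gzmb*, *Nkg7* and *Ncr1*), the Runx letters in 6 of 8 (those 3, *Gzma*, *Prf1* and *Klrb1c*) and the AP-1 letters in 1 of 8. Of all 32851 RefSeq promoters of this length, 12.3% held the T-box letters, 14.1% the Runx letters and 6.75% the AP-1 letters. For *Nkg7* and *Klrb1c* the RefSeq start lies downstream of the start in the count files. The *Nkg7* window ran into the gene as given there, and the *Klrb1c* window lay within it. A match is a run of letters and not a measured binding site.

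*Gzma*, granzyme A (13:113093825-113100979, minus strand), was at 3.59, 2.199 and 3.93 CPM in SAKI mice, against 3.50, 3.24 and 3.54 CPM in WT mice. SAKI 2 was the lowest of the 6 mice and SAKI 3 the highest, so the groups overlapped. The means were 3.24 ± 0.916 CPM in SAKI mice and 3.43 ± 0.160 CPM in WT mice (SD, n = 3 each), and the log2 fold change was -0.08 (SE 0.27, edgeR adjusted p = 0.895), or 0.11 without SAKI 2.

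*Gzmb*, granzyme B (14:56258856-56262260, minus strand), was thinly covered, with 11, 26 and 33 reads in SAKI mice, against 41, 26 and 56 reads in WT mice. Scaled, these were 0.717, 1.68 and 1.71 CPM in SAKI mice, against 2.52, 1.69 and 3.67 CPM in WT mice. It was the member with the most negative fold change, although SAKI 3 lay slightly above WT 2. The means were 1.37 ± 0.564 CPM in SAKI mice and 2.62 ± 0.994 CPM in WT mice (SD, n = 3 each), and the log2 fold change was -0.93 (SE 0.44, unadjusted p = 0.0716, edgeR adjusted p = 0.306, exact permutation p = 0.2). It was -1.16 without WT 2, and -0.61 without WT 3.

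*Prf1*, perforin (10:61297836-61304263, plus strand), was at 5.22, 6.14 and 4.96 CPM in SAKI mice, against 6.20, 2.53 and 5.89 CPM in WT mice. WT 2 was well below the other 5 mice, which lay together. The log2 fold change was 0.16 (SE 0.35, edgeR adjusted p = 0.828) and turned to -0.15 without WT 2, while it was 0.37 without WT 1, 0.31 without WT 3 and 0.05 without SAKI 2. *Nkg7* (7:43437073-43438249, plus strand) was at 12.7, 9.83 and 13.9 CPM in SAKI mice, against 12.5, 7.26 and 10.2 CPM in WT mice, and the groups overlapped. Its log2 fold change was 0.29 (SE 0.24, edgeR adjusted p = 0.535), or 0.48 without WT 1, 0.11 without WT 2 and 0.18 without SAKI 3.

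The NK receptors followed no single pattern. *Klrd1* (CD94, a lectin-like chain that pairs with NKG2 receptors on NK cells and some CD8 T cells, 6:129591782-129598775, plus strand) was at 12.4, 13.8 and 13.5 CPM in SAKI mice, against 10.0, 5.45 and 8.84 CPM in WT mice. As with *Cd8b1*, all SAKI mice were above all WT mice. The means were 13.2 ± 0.745 CPM in SAKI mice and 8.10 ± 2.37 CPM in WT mice (SD, n = 3 each), 1.63-fold higher (log2 0.71, SE 0.24, unadjusted p = 0.0196, edgeR adjusted p = 0.213, exact permutation p = 0.1). Without WT 2 it was 0.49 on the log2 scale, with an edgeR adjusted p of 0.0626, the lowest that *Klrd1* reached over 15 alternatives (the highest was 0.498).

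*Klrb1c*, the NK1.1 antigen by which NK cells are sorted in C57BL/6 mice (6:128778485-128789215, minus strand), was at 5.48, 3.43 and 5.69 CPM in SAKI mice, against 3.01, 3.70 and 3.67 CPM in WT mice. SAKI 1 and SAKI 3 were above all WT mice and SAKI 2 lay among them. The log2 fold change was 0.49 (SE 0.26, edgeR adjusted p = 0.355). The Klrb1 genes are similar in sequence, so its reads may be split or shared with them. *Klrb1c* also overlaps the gene model *Gm44511*, but no gene of that name is in the count files.

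*Ncr1* (NKp46, the receptor most restricted to NK cells and related innate lymphoid cells, 7:4337724-4345164, plus strand) was at 3.06, 2.91 and 3.57 CPM in SAKI mice, against 2.45, 3.83 and 2.29 CPM in WT mice. The highest value of the 6 was in WT 2, the mouse that was lowest for 5 other members. The log2 fold change was 0.16 (SE 0.28, edgeR adjusted p = 0.786), and 0.43 without WT 2 (edgeR adjusted p = 0.258). It was 0.06 without WT 1, 0.02 without WT 3 and 0.07 without SAKI 3.

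*Eomes*, a T-box transcription factor of NK cells and CD8 T cells (9:118478212-118486132, plus strand), was at 6.19, 4.33 and 6.67 CPM in SAKI mice, against 6.57, 3.76 and 3.08 CPM in WT mice. WT 1 was nearly as high as the highest SAKI mouse. The log2 fold change was 0.36 (SE 0.33, edgeR adjusted p = 0.585), and it was 0.74 without WT 1, 0.25 without WT 2 and 0.15 without WT 3. *Eomes* overlaps the antisense gene model *Gm33460*, a name that is not in the count files either. The strand setting of the counting is not given in the sources used here.

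**Figure D2:**
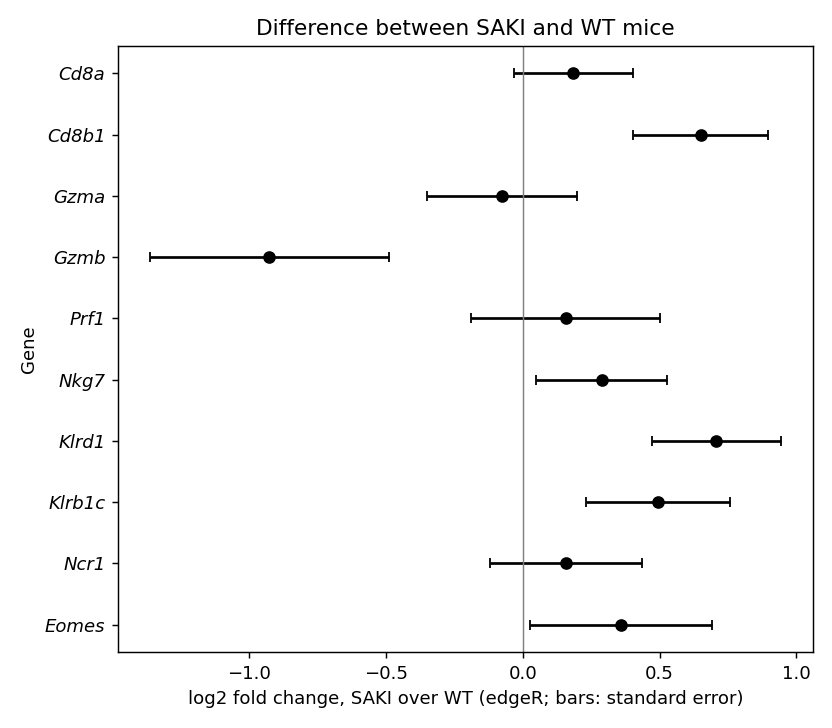
log2 fold change of each gene in SAKI over WT mice from edgeR (x axis), with bars for the standard error. *Klrd1* (0.71) and *Cd8b1* (0.65) were the farthest above 0 and *Gzmb* (-0.93) was the farthest below; none had an adjusted p under 0.05.

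The order of the levels of different genes was read from the deposited FPKM, and the gene lengths behind these values were not checked. In CPM, which is not per length, *Cd8a* was above *Cd8b1* (means 56.9 and 35.2 CPM in SAKI mice, 50.1 and 22.4 CPM in WT mice). The FPKM order of these 2 genes is the reverse and rests on those lengths. Over the 6 mice *Cd8b1* averaged 19.6 FPKM, followed by *Cd8a* (6.98), *Nkg7* (6.93), *Klrd1* (3.85), *Gzma* (3.79), *Prf1* (2.52), *Ncr1* (1.90), *Gzmb* (1.40), *Klrb1c* (0.853) and *Eomes* (0.719). *Cd8b1* exceeded *Cd8a* in all 6 mice and *Nkg7* exceeded *Klrd1* in all 6. *Cd8a* and *Nkg7*, and likewise *Klrd1* and *Gzma*, were each in that order in only 3 of 6 mice and did not differ beyond their spread. The other neighbours kept their order in 4 or 5 of 6 mice.

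The genes shared by all T cells had larger fold changes than most members. All 9 general T cell markers tested had a log2 fold change above 0, with a median of 0.75. All 9 had SAKI values above WT values without overlap, where 13.0% of all tested genes did. With edgeR, 0 had an adjusted p under 0.05 and 8 an unadjusted p under 0.05, where 8.36% of all tested genes were higher at that p. DESeq2 called 5 of the 9 markers, all higher, where it called 4.61% of all genes. Limma-voom called 0, and edgeR without WT 2 called 4, where 16.6% of all genes passed. The summed level of the 9 markers was 344, 347 and 398 CPM in SAKI mice, against 270, 174 and 198 CPM in WT mice. The summed level of the 10 members was 138, 136 and 151 CPM in SAKI mice, against 144, 81.6 and 111 CPM in WT mice, and so overlapped. *Cd3g*, a chain of the T cell receptor complex, was at 45.6, 43.5 and 48.6 CPM in SAKI mice, against 29.6, 21.1 and 21.7 CPM in WT mice (log2 0.93, edgeR adjusted p = 0.149). *Cd4*, the co-receptor of helper T cells, had a log2 fold change of 0.81 (edgeR adjusted p = 0.149). It was the largest among 5 CD4 T cell markers, whose median was 0.30. *Cd40lg* (0.80) was near it, while *Icos* (0.30), *Foxp3* (0.12) and *Ctla4* (-0.22) overlapped between the groups.

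Each member was therefore set against the geometric mean of *Cd3d*, *Cd3e* and *Cd3g* in the same mouse. NK cells do not carry the surface CD3 complex, so for the NK genes this ratio only relates them to the T cells of the sample. The CD3 mean was itself 0.83 higher in SAKI mice on the log2 scale, so a gene with equal CPM in both groups has a ratio about that much lower in SAKI mice. Over the 15339 tested genes with reads in every library, the median difference of the ratio was -0.82, and 14498 genes lay below 0. All 10 members lay below 0 as well, with a median of -0.54, which is nearer to 0 than that of all genes. The SAKI mice were all lower than the lowest WT mouse for 5 of 10 members (*Cd8a*, *Gzma*, *Gzmb*, *Nkg7* and *Ncr1*), where 66.5% of all genes showed this. A lower ratio is therefore no result about the members, and the ratios only say how closely each gene went with CD3. Each of the 5 had an exact permutation p of 0.1, the smallest possible, and an adjusted p of 0.171 over 12 ratios. With other denominators the groups gave p = 0.2 by the exact permutation test for *Ncr1* (*Cd3e* alone, and the T cell receptor constant genes) and for *Nkg7* (*Cd3e* alone).

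The log2 ratio of *Cd8a* to CD3 was 0.71, 0.80 and 0.59 in SAKI mice, against 1.40, 1.13 and 1.35 in WT mice, a difference of -0.59 (-0.68 to -0.54 when each mouse was left out in turn). In this ratio WT 2 was on the side of the other WT mice. *Gzmb*, at -5.52, -4.31 and -4.52 in SAKI mice, against -3.33, -3.25 and -2.37 in WT mice, had a difference of -1.80, and *Gzma* one of -0.95. These 2 were the members further below 0 than the median of all genes. *Nkg7* differed by -0.52, and *Ncr1* by -0.64, which was -0.26 without WT 2. The ratios are of CPM, not per length, so only the differences between the groups are read from them and not which gene was the more abundant.

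*Cd8b1* and *Klrd1*, the members whose CPM were apart, overlapped between the groups when set against CD3. The log2 ratio of *Cd8b1* averaged 0.01 ± 0.06 in SAKI mice and 0.12 ± 0.20 in WT mice (SD, n = 3 each; difference -0.12, exact permutation p = 0.4). That of *Klrd1* averaged -1.41 ± 0.13 in SAKI mice and -1.33 ± 0.23 in WT mice (SD, n = 3 each; difference -0.07, exact permutation p = 0.7). With T cell receptor constant genes as the denominator, both differences were slightly above 0, at 0.03 for *Cd8b1* and 0.07 for *Klrd1*. Against *Cd4*, the log2 ratio of *Cd8a* was -0.50, -0.64 and -0.50 in SAKI mice and 0.25, -0.27 and 0.12 in WT mice, a difference of -0.58 (exact permutation p = 0.1, adjusted p = 0.171 over 12 ratios). *Cd4* was higher in SAKI mice too, the median difference of all genes against it was -0.80, and 69.5% of them had SAKI values all below the WT values.

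**Figure D3:**
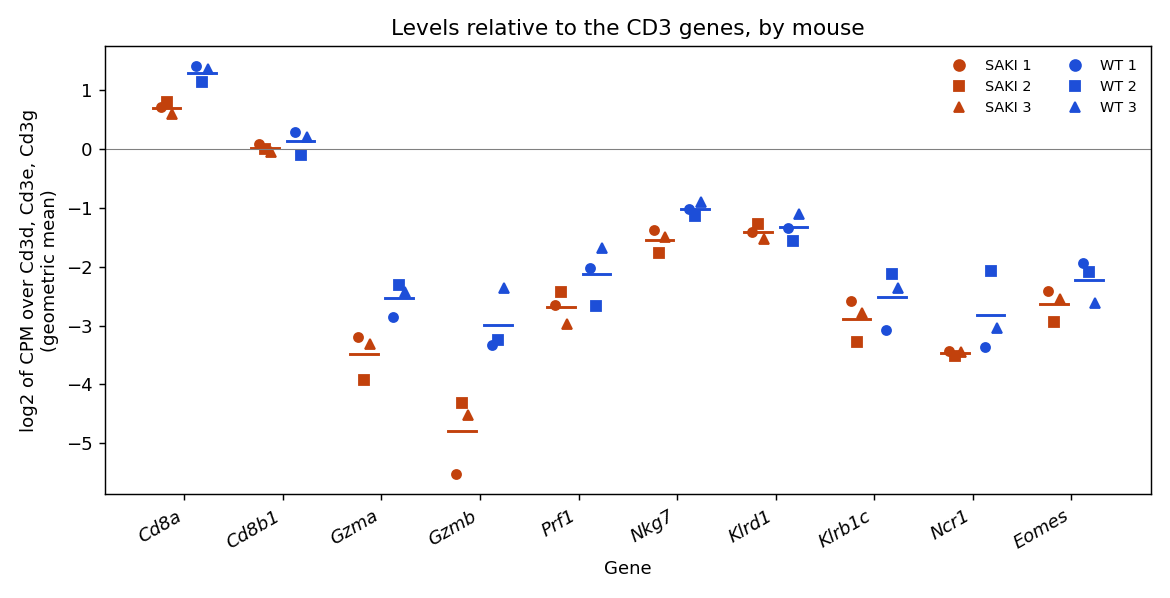
log2 of each gene's CPM over the geometric mean of *Cd3d*, *Cd3e* and *Cd3g* in the same mouse; SAKI mice are orange (left of each pair) and WT mice blue (right), and bars are group means. SAKI mice lay below all WT mice for *Cd8a*, *Gzma*, *Gzmb*, *Nkg7* and *Ncr1*, as they did for 66.5% of all genes, while *Cd8b1* and *Klrd1* overlapped.

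Across the 6 mice the members differed in how they went with the lymphocyte markers. *Cd8b1* and *Klrd1* had a Pearson r of 0.966 with each other, and of 0.969 and 0.947 with the mean of the T cell markers. With the B cell markers they had 0.911 and 0.917, so they went with both lists. *Cd8a* and *Prf1* were closer to the B cell markers (r = 0.966 and 0.922) than to the T cell markers (0.772 and 0.574). The summed B cell markers overlapped between the groups. *Eomes* (r = 0.746 with T cell and 0.532 with B cell markers) and *Klrb1c* (0.52 and 0.07) lay between. *Gzma* (-0.065 and -0.146), *Gzmb* (-0.469 and 0.014) and *Ncr1* (0.087 and -0.471) had low or negative values with both, and *Ncr1* was nearest to macrophage (0.89) and fibroblast markers (0.907). These values describe 6 mice that share library scaling and include the difference between the groups. The markers of lymph node stroma and vessels (of 6 listed symbols, 4 genes could be tested) summed to 152, 182 and 173 CPM in SAKI mice, against 110, 109 and 104 CPM in WT mice. Of these, *Glycam1*, the mucin of lymph node venules, differed most, with means of 78.8 CPM in SAKI and 26.1 CPM in WT mice (log2 1.59, edgeR adjusted p = 0.149). *Madcam1* (log2 0.84) and *Chst4* (0.74) were higher too, at low levels. *Cxcl13* was near equal (means 84.1 CPM in SAKI and 78.0 CPM in WT mice, log2 0.11), and its groups overlapped. *Ccl19* and *Ccl21a* were at 0 in all libraries, and the reason was not tested. Macrophage markers summed to 2458, 2631 and 2957 CPM in SAKI mice, against 1300, 2429 and 1053 CPM in WT mice. Of 10 macrophage markers, edgeR called 0 with all mice. Without WT 2 it called 9, all higher, where 16.6% of all genes passed. The part that the amount of lymph node or of other immune cells had in the values of the members was not tested.

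**Figure D4:**
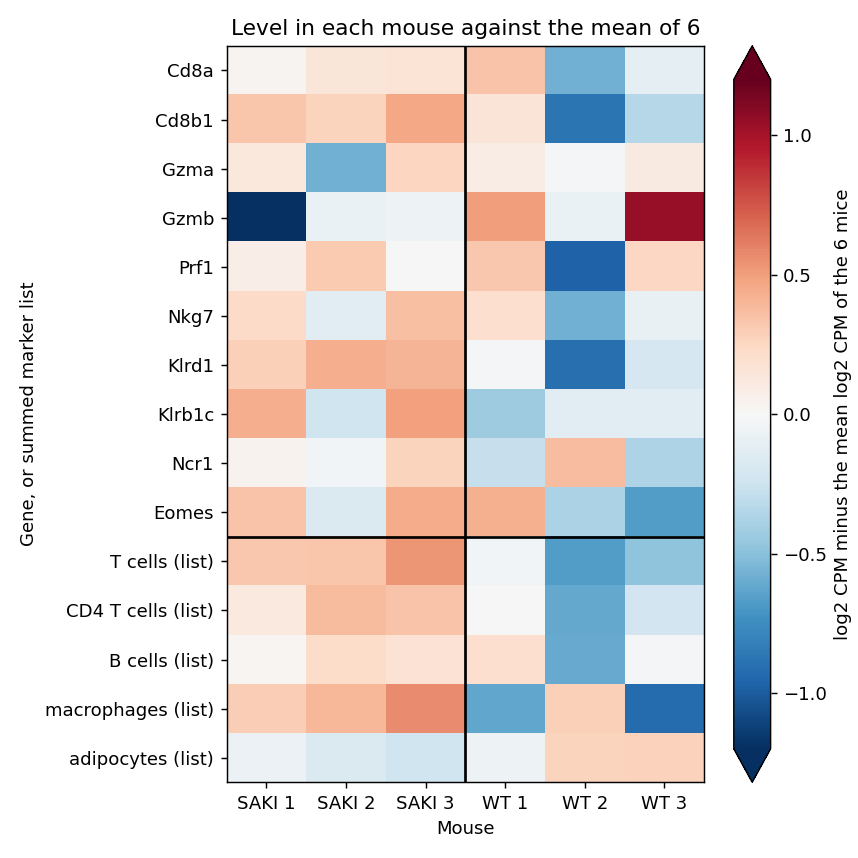
Log2 CPM of each gene, and of 5 summed marker lists, in each mouse minus the mean of the 6 mice (red above, blue below; SAKI mice left of the line, WT mice right). WT 2 was low for *Cd8a*, *Cd8b1*, *Prf1*, *Nkg7*, *Klrd1* and the T and B cell lists, while *Gzmb* was lowest in SAKI 1 and highest in WT 3.

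The genes most like *Cd8a* over the 6 mice, among 14558 genes with a mean of at least 1 CPM, were *Tmem123* and *Igkv17-121* (both r = 0.99), *Mgat5*, *Mtrf1l* and *Mmp25* (each r = 0.99). Those most like *Gzma* were *Pum2* (r = 0.99), *Zbtb37* (0.98), *Bvht* (0.97), *Rlim* (0.96) and *Gm20537* (0.95). The *Gzma* pattern rested on the low value of SAKI 2: *Rlim* was at 80.8, 14.9 and 86.0 CPM in SAKI mice, against 88.4, 74.8 and 97.5 CPM in WT mice.

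The other genes of cytotoxic lymphocytes were counted in 7 further lists, none of whose 99 tested genes passed edgeR at an adjusted p under 0.05. As a background for the counts below, 8.36% of all tested genes were higher in SAKI mice at an unadjusted edgeR p under 0.05 and 9.99% were lower. Among other granule and killing genes, 14 of 21 were tested and 12 had a log2 fold change above 0, with a median of 0.27 and with 2 at an unadjusted p under 0.05, both higher. *Lyst*, which controls the size of lytic granules but is used in many cells, was at 72.9, 77.5 and 75.9 CPM in SAKI mice, against 38.2, 64.3 and 41.1 CPM in WT mice (log2 0.66, edgeR adjusted p = 0.198). *Ctsw*, cathepsin W of cytotoxic cells, had a log2 fold change of 0.54 (edgeR adjusted p = 0.268), and *Fasl*, the death ligand, 0.58. Of the other granzyme genes, *Gzmd*, *Gzme*, *Gzmf*, *Gzmg* and *Gzmn* were at 0 in all libraries, and *Gzmc* was at 1.304, 1.68 and 0.569 CPM in SAKI mice, against 1.29, 0.259 and 0.393 CPM in WT mice.

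Among other NK and CD8 receptors, 29 of 37 were tested, with log2 fold changes above 0 for 24, below 0 for 5 and at 0.36 in the median. An unadjusted p under 0.05 was reached by 8, all higher in SAKI mice, where 8.36% of all tested genes were higher. Without overlap, 11 lay above and 1 below, where 13.0% of all tested genes lay above and 12.4% below. *Cd226* (DNAM-1, an activating receptor for nectin-like ligands) was at 11.2, 13.1 and 13.5 CPM in SAKI mice, against 7.79, 5.32 and 6.09 CPM in WT mice (log2 0.98, edgeR adjusted p = 0.153). *Cd96*, which binds the same ligand family, had a log2 fold change of 1.06 (edgeR adjusted p = 0.166). Both receptors are also carried by CD4 T cells. The 1 gene below without overlap, *Klrc1* (NKG2A, the inhibitory partner of *Klrd1*), was at 2.35, 2.07 and 2.48 CPM in SAKI mice, against 3.62, 2.79 and 3.60 CPM in WT mice (log2 -0.53, edgeR adjusted p = 0.282), and was singled out after its values were seen.

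The signaling adaptors were further above 0, with 13 of 13 above 0, a median of 0.61, 8 at an unadjusted p under 0.05 and all 8 higher. *Cd247*, the zeta chain used by the T cell receptor and by NK receptors, was at 36.1, 33.8 and 41.4 CPM in SAKI mice, against 20.6, 17.4 and 14.99 CPM in WT mice (log2 1.07, edgeR adjusted p = 0.149). *Lck*, the kinase bound to the CD4 and CD8 co-receptors, had a log2 fold change of 0.66. Both are genes of T cells in general, not only of cytotoxic ones.

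Of 15 other transcription factors, 11 were above 0 and 4 below, with a median of 0.28 and 4 at an unadjusted p under 0.05, all higher. *Tbx21* (T-bet), the T-box factor of effector cells, was at 4.50, 3.43 and 3.62 CPM in SAKI mice, against 2.58, 4.15 and 1.51 CPM in WT mice. *Runx3*, which sets the CD8 lineage, was at 17.6, 21.1 and 24.1 CPM in SAKI mice, against 23.5, 11.6 and 16.5 CPM in WT mice. Both groups overlapped for each, and both genes were named for the promoter motifs after their values were seen. *Tox* had the smallest p of this list (log2 0.78).

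Effector cytokines were sparse. Of 9 genes, 5 could be tested, all 5 above 0 with a median of 0.58, and 3 had an unadjusted p under 0.05. *Ccl5*, a chemokine of effector T and NK cells, was at 45.4, 43.9 and 62.7 CPM in SAKI mice, against 46.1, 26.8 and 27.9 CPM in WT mice (log2 0.59), and the groups overlapped through WT 1. *Tnf* had a log2 fold change of 0.63. *Ifng*, interferon gamma, was at 0.261, 0.388 and 0.362 CPM in SAKI mice, against 0.0614, 0.130 and 0.131 CPM in WT mice. These levels were under the filter on low counts, so no test was made, and the gene was named after its values were seen.

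The signals that act on these cells were not on one side of 0. Of 12 cytokines and chemokines, 9 were tested, 6 above 0 and 3 below, with a median of 0.21. *Cxcl10*, which recruits CXCR3-bearing T and NK cells, was at 3.00, 3.23 and 5.12 CPM in SAKI mice, against 8.53, 4.41 and 8.77 CPM in WT mice (log2 -0.93, edgeR adjusted p = 0.239) and was the 1 gene of this list with an unadjusted p under 0.05. Of 17 MHC class I genes and NK receptor ligands, 14 were tested, 8 above 0 and 6 below, with a median of 0.05 and 2 at an unadjusted p under 0.05. *Cd48*, the ligand of the NK receptor 2B4, had a log2 fold change of 0.72 (edgeR adjusted p = 0.163), and *Pvr*, a ligand of *Cd226* and *Cd96*, had -0.37. Without WT 2, 16 of 102 tested genes of the 7 lists passed edgeR at an adjusted p under 0.05 (13 higher and 3 lower in SAKI mice), close to the 16.6% of all genes that did, among them *Cd247*, *Cd226*, *Cd96* and *Lyst* (higher) and *Cxcl10* and *Pvr* (lower), while 0 members did. DESeq2 called 10 of 97, all higher, where it called 4.61% of all genes.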

How the data were processed

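IngWAT RNA of 3 SAKI and 3 WT mice was sequenced after poly(A) capture. The authors deposited raw counts per gene for each library, not normalized, and a table of FPKM values. In the notes of the submitters, StringTie 1.3.0, HISAT2 2.0.4, Bowtie2 2.2.6 and the build GRCm38 are listed without roles, and for the counting tool and its strand setting there is nothing in the sources used here. Counts were filtered (filterByExpr, minimum count 10, minimum total 15), TMM-scaled and tested by the quasi-likelihood method of edgeR 4.0.16 (R 4.3.3) with genotype as the only term, and p-values were adjusted by Benjamini-Hochberg over 15400 genes, with a threshold of 0.05. The fit was tested on simulated data. CPM used the same TMM library sizes. Ratios were tested by two-sided exact permutation. The labels do not say more of the samples than 1 per mouse, so p-values measure the spread between these samples. Each gene's standard error is that of the edgeR fold change. Alternatives were RLE and upper-quartile scaling, no filter, DESeq2 1.42.0, voom and FPKM fits with limma 3.58.1 (pseudocounts 1 and 0.1), a replicate block, a B cell marker covariate, other denominators and leaving out each mouse. Named genes were every member, up to 4 genes of smallest p per list with a mean of at least 0.5 CPM, the genes most like *Cd8a* and *Gzma*, and *Slc35d3*. Members and lists were chosen with earlier results of these data known. Promoter sequences are from RefSeq (GRCm38.p6). A result for a gene of the lists is not reported here.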

Additional observations from a re-analysis of the deposited data

How the results depend on the processing

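The count of members called was 0 under all 15 alternatives. Over all genes, 5 passed in the edgeR fit (3 higher and 2 lower in SAKI mice), against 8 with no filter on low counts, 755 with the B cell covariate, 685 with DESeq2, 9 with limma on log2(FPKM + 1), 12 with limma on log2(FPKM + 0.1), and 1 to 2598 when each mouse was left out, the highest without WT 2 and the lowest without SAKI 3. Without SAKI 1 there were 2 and without SAKI 2 there were 2. Of the genes in the other 7 lists, 0 passed in the edgeR fit, 7 with the B cell covariate, 10 with DESeq2 and 0 to 16 when each mouse was left out, the highest without WT 2. Limma on log2(FPKM + 1) left out *Klrb1c* and *Eomes*. The cause of these differences was not tested.

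The same replicate number in both groups did not mark a pair: deviations of same-numbered mice had correlations of 0.01, 0.02 and 0.10, and mice did not correlate best with their own number. With a replicate block, 1 gene and 0 members passed.

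Signs of the log2 fold change turned for *Cd8a* (-0.091) and *Prf1* (-0.24) with the B cell covariate. Leaving out each mouse gave -0.012 to 0.44 for *Cd8a*, -0.15 to 0.37 for *Prf1* and -0.24 to 0.11 for *Gzma*. Among the other genes named by the rule, *Cxcl13* was -0.067 and *Cox6a2* -0.25 with the covariate. *Ctla4* was 0.0038 with limma on log2(FPKM + 0.1). Leaving out each mouse gave -0.058 to 0.21 for *Cxcl13*, -0.76 to 1.46 for *Cox6a2* and -0.61 to 0.041 for *Ctla4*. The log2 ratio to CD3 turned to 0.027 for *Cd8b1* and 0.072 for *Klrd1* with *Trac*, *Trbc1* and *Trbc2* as denominator, and to 0.012 for *Klrd1* with *Cd3e* alone. It was -0.19 to 0.043 for *Klrd1* when each mouse was left out. Low depth limited *Gzmb*, with 11 reads in SAKI 1.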

Other observations

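The low *Gzma* value of SAKI 2 stood beside low values of other genes in that library. *Zbtb37* was at 41.7, 12.6 and 47.2 CPM in SAKI mice, against 39.2, 36.2 and 34.4 CPM in WT mice. *Pum2* was at 199, 115 and 202 CPM in SAKI mice, against 192, 177 and 201 CPM in WT mice. Both were chosen as the genes most like *Gzma*, so their likeness to it is a description.

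Among markers of type 1 dendritic cells, which present antigen to CD8 T cells, *Clec9a* had a log2 fold change of 2.13 in SAKI over WT mice (edgeR adjusted p = 0.0569). Of the 6 markers, edgeR called 0, DESeq2 called 2, limma-voom called 1 and edgeR without WT 2 called 1. Of all genes, edgeR called 0.0325%, DESeq2 4.61% and edgeR without WT 2 16.6%. Markers of plasmacytoid dendritic cells summed to 29.5, 24.3 and 29.4 CPM in SAKI mice, against 18.2, 13.1 and 9.43 CPM in WT mice. Of these 4 genes, edgeR called 0, DESeq2 called 2 and edgeR without WT 2 called 3. At an unadjusted p under 0.05 there were 3, all higher, where 8.36% of all tested genes were higher. Red cell markers summed to 89.1, 89.7 and 92.7 CPM in SAKI mice, against 216, 181 and 442 CPM in WT mice. Of these 5 genes, edgeR called 0, DESeq2 called 5 and edgeR without WT 2 called 5. At an unadjusted p under 0.05 there were 5, all lower, where 9.99% of all tested genes were lower.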
